A study of Mus musculus with 6 samples.

Results

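The genes described here are 9 that mark the pyramidal cells of the hippocampal subfields CA1, CA2 and CA3, out of 53354 gene symbols with expected counts from the hippocampus of 6 mice. They were chosen by name. Wfs1, Fibcd1, Pou3f1 and Mpped1 stood for CA1, Amigo2, Pcp4 and Rgs14 for CA2, and Bok and Nectin3 for CA3. Every isoform whose name without its final number is one of these symbols was taken, which gave 37 of the 133944 isoforms. All mice were 3 months old, of the C57BL/6 strain, and carried N-cre, a Cre recombinase driven by the nestin promoter, which in the hippocampus is active in neurons. The 3 controls carried N-cre alone. The 3 N-cre;Fox1 mice also carried 1 copy of an Rbfox1 cDNA in the Gt(ROSA)26Sor locus, placed behind a CAG promoter and a loxP-flanked stop cassette that Cre removes. Each mouse gave 1 library from whole hippocampal tissue, so a gene of one subfield was read in the RNA of all of them, and fewer cells of a subfield cannot be told apart from less RNA of its marker per cell.

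The pyramidal cells of the hippocampus form a continuous layer in which CA3 receives mossy fibers from the dentate gyrus and sends Schaffer collaterals to CA1, while CA2 lies between them. The cells of the subfields resemble each other in their common excitatory neuron genes and differ in a small set of marker genes, which are used to draw their borders. Rbfox1 is a neuronal RNA-binding protein that regulates splicing in the nucleus and mRNA levels in the cytoplasm, and the letters it binds best are UGCAUG.

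The libraries held 40463587 to 62141336 expected counts, and normalized counts are those scaled by edgeR's TMM method to the mean library size. Rbfox1 itself had normalized counts of 14456 to 15285.5 in the controls against 13571 to 15939 with the transgene, so its total did not separate the genotypes. The paper reports, from other measurements, a modest rise of hippocampal Rbfox1 mRNA and protein in N-cre;Fox1 mice. The markers of choroid plexus stood apart in N-cre replicate 3 and N-cre;Fox1 replicate 2. The summed normalized counts of 6 such genes were 119266 and 268086 in these mice against 1436 to 1946 in the other 4, and Ttr, the transthyretin of choroid plexus, had 111007 and 251899.9 against 274 to 672. Xist was at 23514 and 22029.5 in replicate 1 of each genotype and at 17.3 to 22.2 in the other 4 mice. Subfield results are therefore also given without the mice rich in choroid plexus markers, a choice made after these values were seen.

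Because the Rbfox proteins bind UGCAUG, these letters were searched, as TGCATG on the sense strand, in the most abundant isoform of each gene. They were present in 5 of the 9, 3 times in Wfs1-201, 2 times each in Fibcd1-201, Mpped1-201 and Rgs14-201 and 1 time in Pcp4-201, and not in Pou3f1-201, Amigo2-201, Bok-201 or Nectin3-201. Among the most abundant isoforms of 18885 tested genes 51.2% held them. The share differed with length. Of genes within 10% of the length of Wfs1-201 (3787 nt) 64.3% held the letters, and of those near the length of Pcp4-201 (641 nt) 15.0%. All matches in these 5 isoforms were in the 3' UTR except 1 in the coding sequence of Wfs1. The second Nectin3 isoform, Nectin3-202, is 9116 nt long and held 1 match, in a 3' UTR that Nectin3-201 lacks. Of genes of similar length 92.6% held at least 1 match anywhere in the transcript, with a median of 2. The windows of Wfs1 and Nectin3-202 are shown because these are the genes whose counts did not overlap between the genotypes, and that of Pcp4 because it is the shortest transcript with a match. Each is written 5′ to 3′ on the transcript strand from the GENCODE M21 transcripts of mm10, with the match in capitals.
Wfs1-201, coding, chr5:36966983-36967008, minus strand: ctgcctcaacTGCATGacgcagctgt
Wfs1-201, 3' UTR, chr5:36966828-36966853, minus strand: gaggctttggTGCATGttgctgtgaa
Wfs1-201, 3' UTR, chr5:36966609-36966634, minus strand: cataagaaatTGCATGctatcttcac
Nectin3-202, 3' UTR, chr16:46391053-46391078, minus strand: agaaagcaaaTGCATGggctcccttg
Pcp4-201, 3' UTR, chr16:96525635-96525660, plus strand: aaacctgaaaTGCATGaagagaaacc
A match is a description of the transcript and does not show that Rbfox1 binds there.

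To ask whether mice with the Rbfox1 transgene had a different level of the subfield markers, the isoforms of each gene were added up. The genotypes were then compared with edgeR's quasi-likelihood test. All 9 genes passed the filter on low counts. None of the 9 passed an adjusted p of 0.05, a threshold passed by 0.0264% of the 18924 genes tested. Wfs1 was the CA1 marker with the largest difference, with a mean in N-cre;Fox1 mice 0.784 times that in N-cre mice, and Nectin3 the marker with the lowest p. At an unadjusted p of 0.05 edgeR called 1 of the 9, Nectin3, against 6.19% of all genes. DESeq2 and limma-voom called 0 of the 9 after adjustment, where they called 50 and 6 of the 18924 genes. Before adjustment, each called 1 of the 9 at 0.05, Nectin3 by limma-voom and Wfs1 but not Nectin3 by DESeq2. The share of all genes below an unadjusted 0.05 was not computed for these tests. On the log2 scale the difference, N-cre;Fox1 over N-cre, was above 0 for 2 of the 9 and below 0 for 7, with a median of -0.03, where the median over all genes was 0. Without any overlap between the genotypes were Wfs1, lower in all 3 N-cre;Fox1 mice as were 6.11% of all genes, and Nectin3, higher in all 3 as were 6.06%.

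**Figure D1:**
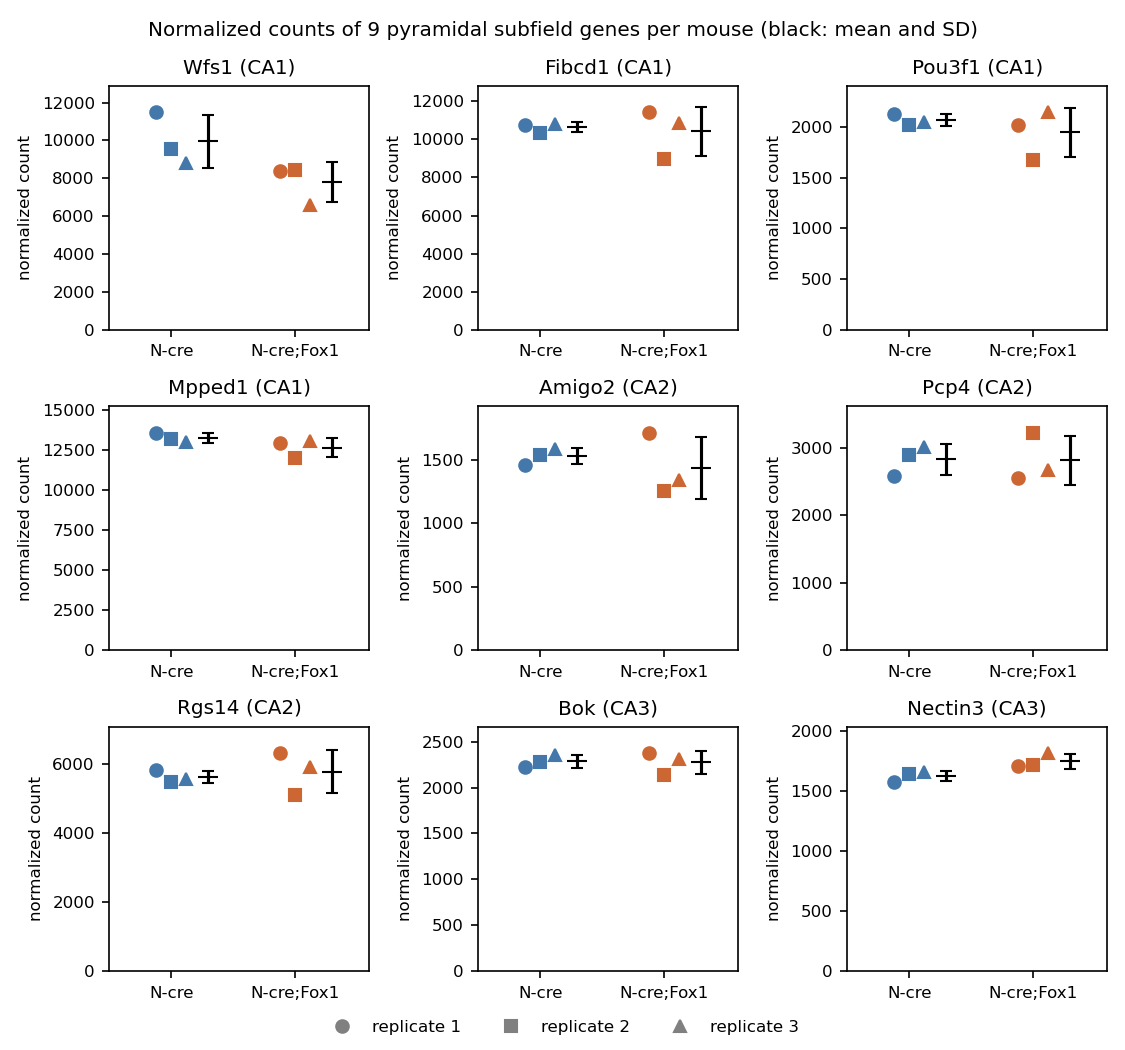
Normalized counts of the 9 genes (y axis, from 0) in each N-cre (blue) and N-cre;Fox1 mouse (orange), with the symbol giving the replicate number and black bars the mean and SD of 3 mice. Wfs1 was lower and Nectin3 higher in every N-cre;Fox1 mouse than in any N-cre mouse, while the genotypes overlapped for the other 7 genes.

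Among the CA1 markers, Wfs1 (ENSMUSG00000039474.13, chr5:36966104-36989205, minus strand) encodes wolframin, a membrane protein of the endoplasmic reticulum. Its normalized counts were 11496, 9551.5 and 8801 in N-cre replicates 1, 2 and 3, and 8379, 8437 and 6577 in N-cre;Fox1 replicates 1, 2 and 3. Every N-cre;Fox1 mouse was below the lowest N-cre mouse, but the gap between 8437 and 8801 was smaller than the spread within either genotype. The means were 9949.5 ± 1390.5 and 7798 ± 1057 (SD, n = 3 each). This was a log2 fold change of -0.35 with a 95% interval of -0.75 to 0.04, and edgeR's adjusted p was 0.813, with 0.282 to 0.9998 over the alternatives. Without N-cre replicate 1, the mouse with the highest count, the log2 fold change was -0.23, and without both mice rich in choroid plexus markers it was -0.49, with an adjusted p of 0.927 in each case. Wfs1 is also made outside CA1. The summed counts of 6 genes of neocortex and subiculum were 13107 to 16780.3 in the controls against 13752 to 14452 with the transgene, and those of 8 striatal genes 7651 to 8582 and 6900.5 to 9272, so both overlapped between the genotypes. N-cre replicate 1 had the largest neocortical sum and the most Wfs1, but N-cre replicate 3 had the smallest and more Wfs1 than any N-cre;Fox1 mouse. Of these genes 4 of 6 and 7 of 8 had a log2 fold change below 0, with medians of -0.08 and -0.15. The part of such tissue in the Wfs1 difference was not tested.

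Fibcd1 (ENSMUSG00000026841.7, chr2:31813290-31846005, minus strand) encodes a transmembrane receptor with a fibrinogen domain that binds acetylated sugars. Its counts were 10770.2, 10355 and 10814 in N-cre and 11427, 8950.4 and 10873.5 in N-cre;Fox1 mice, so that the highest and the lowest of the 6 mice were both N-cre;Fox1. The means were 10646 ± 253 and 10417 ± 1300 (SD, n = 3 each), with a log2 fold change of -0.03 (95% interval -0.25 to 0.19, edgeR adjusted p = 0.986). The difference followed 1 mouse, since without N-cre;Fox1 replicate 2 the log2 fold change was 0.07, and 0.08 without both mice rich in choroid plexus markers. Pou3f1 (ENSMUSG00000090125.3, chr4:124656807-124660655, plus strand, a single exon) encodes a POU-domain transcription factor. It had counts of 2131, 2016 and 2048 in N-cre and 2019.9, 1674 and 2145 in N-cre;Fox1 mice. Here too N-cre;Fox1 replicate 2 was the lowest and the other 2 mice of that genotype lay near the controls. Its log2 fold change was -0.09 (95% interval -0.29 to 0.11, edgeR adjusted p = 0.941), 0.012 without that mouse and 0.0074 without both mice rich in choroid plexus markers. The antisense gene Gm2164 overlaps 330 nt of Pou3f1 exon, and whether strand was used in counting is not given in the sources used here.

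Mpped1 (ENSMUSG00000041708.12, chr15:83779467-83858494, plus strand) encodes a protein with a metallophosphoesterase domain. Its counts were 13610.4, 13194 and 13037 in N-cre and 12944, 12024 and 13075 in N-cre;Fox1 mice. These values were close together, and 2 of the 3 N-cre;Fox1 mice were below all controls. Mpped1 differed by -0.07 on the log2 scale (edgeR adjusted p = 0.857), and its 95% interval, -0.16 to 0.02, was the narrowest of the 9 genes. That interval leaves out -0.35, the value of Wfs1, but the wider Wfs1 interval, -0.75 to 0.04, holds the -0.07 of Mpped1. Whether these genes differed from each other was not tested. Without both mice rich in choroid plexus markers Mpped1 differed by -0.04. Per mouse, the Wfs1 count divided by the sum of the other 3 CA1 markers was 0.434, 0.374 and 0.340 in N-cre and 0.318, 0.373 and 0.252 in N-cre;Fox1 mice, and this ratio overlapped between the genotypes.

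Of the CA2 markers, Amigo2 (ENSMUSG00000048218.6, chr15:97244125-97247287, minus strand) encodes an adhesion protein with leucine-rich repeats and an immunoglobulin domain. It had normalized counts of 1459.6, 1538 and 1583 in N-cre and 1711, 1251 and 1336 in N-cre;Fox1 mice. The N-cre;Fox1 mice lay on either side of the controls. Amigo2 had a log2 fold change of -0.09 (95% interval -0.37 to 0.19, edgeR adjusted p = 0.961), and it moved with the mouse left out, to -0.23 without N-cre;Fox1 replicate 1 (adjusted p = 0.204, the lowest of 0.204 to 0.9998 over the alternatives) and -0.0025 without N-cre;Fox1 replicate 2. Without both mice rich in choroid plexus markers it was 0.03. Exons of Pced1b on the opposite strand overlap 58 nt of Amigo2.

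Pcp4 (ENSMUSG00000090223.2, chr16:96467606-96525793, plus strand) encodes a small calmodulin-binding protein. Its counts were 2577.5, 2887 and 3011 in N-cre and 2552, 3221 and 2663 in N-cre;Fox1 mice, with the highest and the lowest value again in N-cre;Fox1 mice. On the log2 scale Pcp4 differed by -0.0047 (95% interval -0.27 to 0.26, edgeR adjusted p = 0.998). The 2 mice with the most Pcp4, N-cre replicate 3 and N-cre;Fox1 replicate 2, were those rich in choroid plexus markers. Without both, Pcp4 differed by -0.063 on the log2 scale (edgeR adjusted p = 0.966). The part of choroid plexus in the Pcp4 counts was not tested. In addition, 243 nt of Pcp4 exon overlap Igsf5 on the same strand.

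Rgs14 (ENSMUSG00000052087.14, chr13:55369732-55384687, plus strand) encodes a regulator of G protein signaling that restrains plasticity of CA2 synapses. It had counts of 5820.4, 5482 and 5554 in N-cre and 6316, 5094 and 5914 in N-cre;Fox1 mice. As for Amigo2, and also for Fibcd1 of CA1 and Bok of CA3, N-cre;Fox1 replicate 1 was the highest and replicate 2 the lowest of the 6 mice. For Rgs14 the log2 fold change was 0.04 (95% interval -0.14 to 0.21, edgeR adjusted p = 0.9752), with -0.03 when replicate 1 and 0.12 when replicate 2 of N-cre;Fox1 was left out (adjusted p = 0.936 and 0.621, with 0.621 to 0.9998 over the alternatives). Without both mice rich in choroid plexus markers it was 0.12 as well (edgeR unadjusted p = 0.0338, adjusted p = 0.822). Because Pcp4 and Rgs14 were at opposite ends in N-cre;Fox1 replicate 2, their ratio in that mouse, 0.632, was the highest of the 6, and it was 0.404 to 0.542 in the others.

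The CA3 marker Nectin3 (ENSMUSG00000022656.15, chr16:46387706-46498525, minus strand) encodes an adhesion molecule of the immunoglobulin superfamily found at cell junctions. Its counts were 1578, 1639.5 and 1658 in N-cre and 1705, 1718 and 1815 in N-cre;Fox1 mice. All 3 N-cre;Fox1 mice were above the highest control. The means were 1625 ± 41.7 and 1746 ± 60.3 (SD, n = 3 each), and the log2 fold change was 0.10 with a 95% interval of 0.001 to 0.21. By edgeR the unadjusted p was 0.0483, with 0.0278 to 0.184 over the alternatives, and the adjusted p 0.799. Without both mice rich in choroid plexus markers the log2 fold change was 0.13. The other CA3 marker, Bok (ENSMUSG00000026278.14, chr1:93685660-93695764, plus strand), is a member of the Bcl-2 family. It had normalized counts of 2222, 2276 and 2359 in N-cre and 2377, 2133 and 2315.5 in N-cre;Fox1 mice, which overlapped throughout. The log2 fold change of Bok was -0.0063 (95% interval -0.11 to 0.10, edgeR adjusted p = 0.994), 0.02 without N-cre replicate 3, 0.04 without N-cre;Fox1 replicate 2 and 0.06 without both. The count of Nectin3 divided by that of Bok was 0.710, 0.720 and 0.703 in N-cre and 0.718, 0.805 and 0.784 in N-cre;Fox1 mice, and overlapped.

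**Figure D2:**
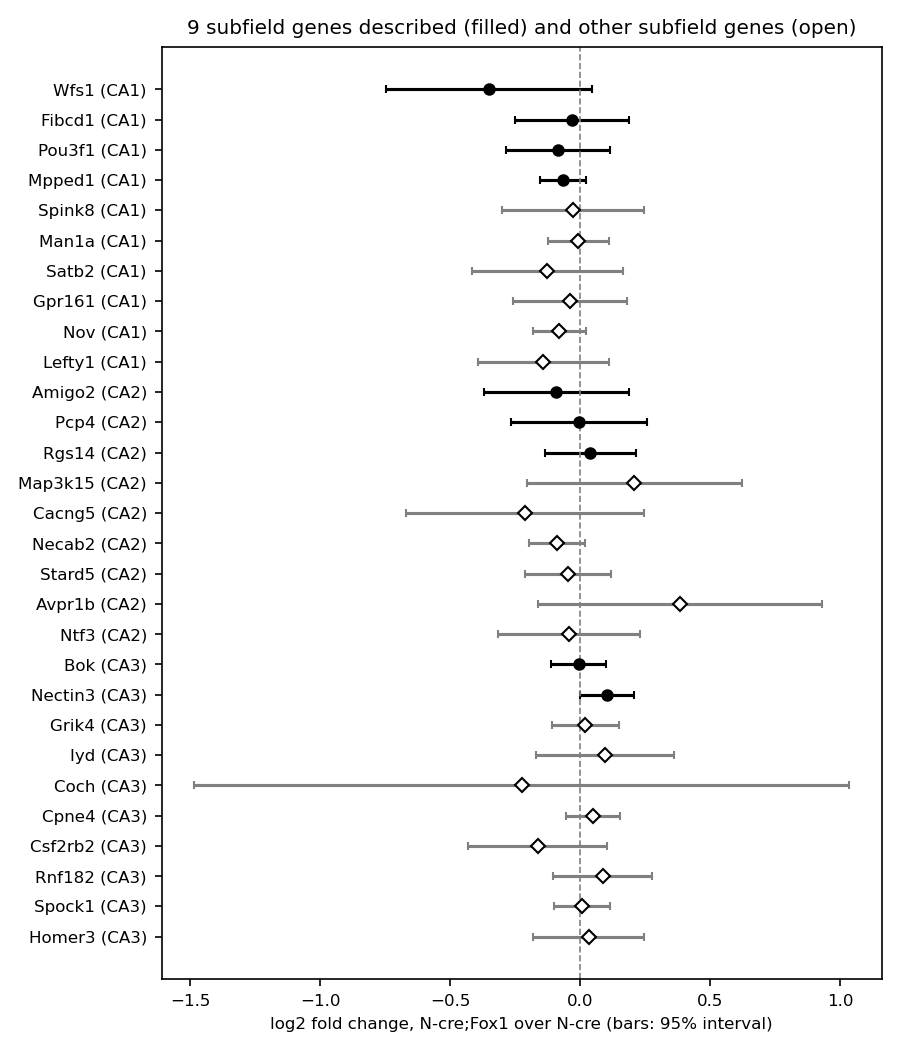
Log2 fold change of N-cre;Fox1 over N-cre (x axis) with its 95% interval for the 9 genes (filled circles) and for other markers of the same subfields (open diamonds), by gene on the y axis. Of the 9 genes only Nectin3 has an interval that leaves out 0, and Wfs1 lies farthest from 0 at -0.35.

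Other markers of the subfields were compared in the same fit. Of 6 further CA1 genes, 0 passed the adjusted threshold in edgeR, 0 an unadjusted p of 0.05, and 0 were free of overlap. All 6 had a log2 fold change below 0, from -0.14 to -0.01, with a median of -0.06. The most abundant were Nov, a secreted matricellular protein (-0.08, adjusted p = 0.849), Gpr161, an orphan G protein-coupled receptor (-0.04, adjusted p = 0.981), and Man1a, a mannosidase (-0.0068, adjusted p = 0.994). The lowest of the 6 was above the -0.35 of Wfs1. Of 6 further CA2 genes, 2 were above 0 and 4 below, with a median of -0.04, and of 8 further CA3 genes 6 were above 0 and 2 below, with a median of 0.03. None of these 14 passed the adjusted threshold or an unadjusted p of 0.05. The most abundant were Necab2, a neuronal calcium-binding protein, in CA2 (-0.09, adjusted p = 0.845) and Spock1, a proteoglycan, in CA3 (0.0067, adjusted p = 0.994). The 4 genes of excitatory neurons in general had a median of -0.01, and their summed counts were 275614 in N-cre;Fox1 replicate 2 and 295944.5 to 318255 in the other 5 mice.

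The genes were next compared between single mice. N-cre;Fox1 replicate 2 was the lowest mouse for 6 of the 9 genes, Fibcd1, Pou3f1, Mpped1, Amigo2, Rgs14 and Bok, and the highest for Pcp4. This mouse was also the lowest for 27.1% and the highest for 22.1% of the 13737 tested genes whose mean normalized count was 100 or more, which is more often than any other mouse. It was the mouse with the highest choroid plexus marker counts, whose part in these values was not tested. N-cre replicate 3, the other such mouse, and N-cre replicate 2, which had low choroid plexus markers, were neither the lowest nor the highest for any of the 9. Over the 13737 genes they were the lowest for 15.2% and 15.1% and the highest for 12.7% and 15.8%. The range of log2 CPM (edgeR's depth-scaled counts) over the 6 mice was 0.81 for Wfs1, 0.45 for Amigo2, 0.36 for Pou3f1 and 0.16 for Bok, the smallest of the 9, where the median of the 13737 genes was 0.19. In 7 of the 9 the range was above that median.

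**Figure D3:**
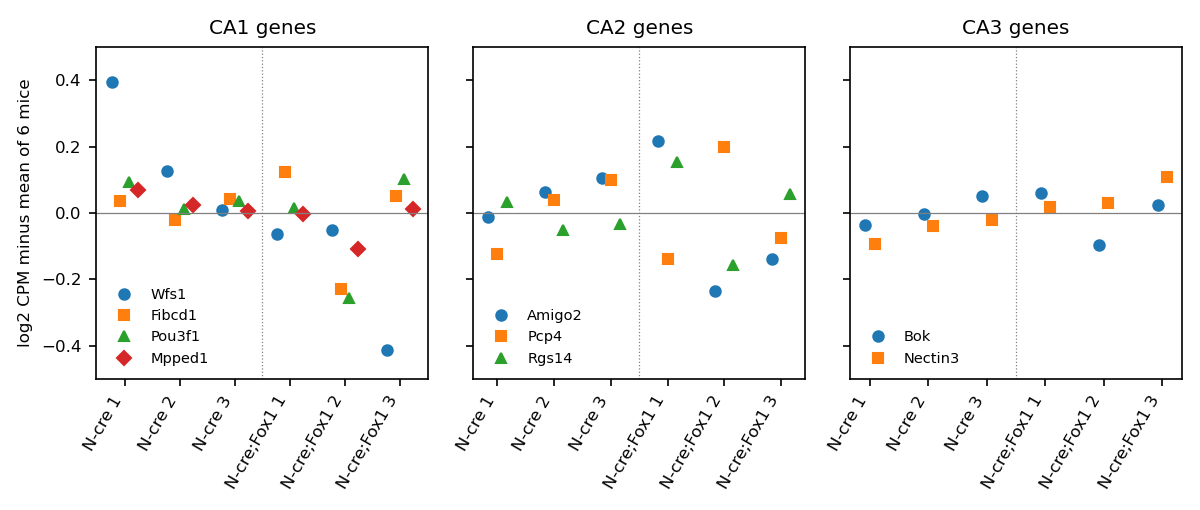
Log2 CPM of each gene minus its mean over the 6 mice (y axis) in each mouse (x axis), for the CA1, CA2 and CA3 genes in separate panels, with a dotted line between the genotypes. In N-cre;Fox1 replicate 2 all genes except Wfs1, Pcp4 and Nectin3 lie at their lowest, and Pcp4 lies at its highest.

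For the 3 genes with the widest range, the tested genes with the most similar values over the 6 mice were found by the root mean square difference in mean-centred log2 CPM among 13736 other genes. For Wfs1 these were 9130024F11Rik, with a difference of 0.03, and Gm32687, with 0.07. For Amigo2 they were Trim17 (0.02) and Pkp2 (0.04), and for Pou3f1 Fkbpl (0.01) and 3300002P13Rik (0.03). No other of the 9 subfield genes was among these nearest patterns. With 6 mice and so many genes a close match of this kind is a description of these libraries only.

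Next, isoforms were compared, since Rbfox1 acts on splicing. Of the 37 isoforms 21 passed the filter. The 16 that did not had at most 42.4 expected counts in any mouse, and 3 of them, Nectin3-204, Nectin3-206 and Bok-204, were listed at 0 in all 6 mice. A count of 0 allows up to 0.0296% of the Nectin3 and 0.022% of the Bok counts at 3 counts over all mice, for counting error only. Fibcd1, Pou3f1, Amigo2 and Pcp4 have 1 isoform each in the table, so for them isoform and gene are the same measurement. edgeR called 0 of the 21 isoforms at an adjusted p of 0.05, as it did 0% of the 50556 isoforms tested, and 0 at an unadjusted p of 0.05, where it called 4.78% of them. Among the 21 the lowest adjusted p was 0.990. DESeq2 and limma-voom also called 0 of the 21 after adjustment, where they called 215 and 0 of the 50556 isoforms. At an unadjusted p of 0.05 each called 1 of the 21, and the share of all isoforms was not computed for these tests. The log2 fold changes ran from -0.35 to 0.68, and the positive end was held by Nectin3-209, a processed transcript with a mean of 13.3 normalized counts and a 95% interval of -2.21 to 3.57.

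Free of overlap between the genotypes was 1 of the 21 isoforms, Wfs1-201, where 5.68% of all isoforms were lower and 5.85% higher in every N-cre;Fox1 mouse. Wfs1-201 had normalized counts of 9662, 7505 and 7507 in N-cre and 7279.8, 6659 and 5361.5 in N-cre;Fox1 mice. The second isoform, Wfs1-202, had 1853, 2053 and 1273 in N-cre and 1094, 1780.4 and 1201 in N-cre;Fox1 mice, and overlapped. Their log2 fold changes were almost equal, -0.35 with a 95% interval of -0.72 to 0.01 for Wfs1-201 and -0.35 with -0.95 to 0.26 for Wfs1-202 (edgeR adjusted p = 0.990 for each). Both have 8 exons, with 3787 nt in Wfs1-201 and 3284 nt in Wfs1-202. Of these, 325 nt of Wfs1-201 and 0 nt of Wfs1-202 are in no other Wfs1 isoform in the table. How far reads across exon junctions tell the 2 apart was not examined. How much of the Wfs1-202 count rests on RSEM's division of shared reads is therefore not known.

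To ask whether an isoform took another share of its gene, isoform usage was tested with edgeR's diffSpliceDGE on the 5 genes with more than 1 tested isoform, which hold 17 of the 21. Of these 17, 0 passed an adjusted p of 0.05, which 0.217% of 42441 isoforms in the usage test did, and 0 an unadjusted p of 0.05. Wfs1-201 made up 83.9%, 78.5% and 85.4% of the Wfs1 counts in N-cre and 86.9%, 78.9% and 81.7% in N-cre;Fox1 mice, and the means of 82.6% ± 3.62 and 82.5% ± 4.07 (SD, n = 3 each) differed by -0.0977 percentage points. The share therefore differed by less than the spread between mice.

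Nectin3 was the gene whose isoforms were most mixed. Nectin3-201 made up 59.8% ± 1.92 in N-cre and 60.1% ± 2.61 in N-cre;Fox1 mice (SD, n = 3 each), Nectin3-202 35.8% ± 1.14 and 35.1% ± 1.67, and Nectin3-203 3.203% ± 1.01 and 3.27% ± 1.08. The 3 end at different 3' exons, with 1418, 7152 and 375 nt of their own, so reads can tell them apart. In normalized counts Nectin3-201 had 953.9, 1007 and 954.1 in N-cre and 999.3, 1006 and 1143 in N-cre;Fox1 mice. Nectin3-202, which holds the TGCATG match, had 547, 593 and 610 in N-cre and 612, 623 and 601 in N-cre;Fox1 mice. Each isoform overlapped between the genotypes although the sum did not. Counts do not correct for length, and per length Nectin3-201 had 14.6 TPM against 2.90 TPM for Nectin3-202.

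The other genes were counted mostly as 1 isoform. Mpped1-201 made up 95.1% ± 0.863 and 95.6% ± 0.307 of its gene in N-cre and N-cre;Fox1 mice (SD, n = 3 each), Rgs14-201 98.9% ± 0.587 and 98.5% ± 0.474, and Bok-201 98.0% ± 0.783 and 97.6% ± 0.311. The minor isoforms that passed the filter were Mpped1-204, annotated for nonsense-mediated decay, at 3.91% and 3.56%, Mpped1-206 at 0.382% and 0.314%, Bok-203 at 1.74% and 2.02%, and the retained introns Rgs14-202 and Rgs14-204 at 0.720% and 0.307% in N-cre and 1.04% and 0.344% in N-cre;Fox1 mice. Rgs14-202 was listed at 0 in N-cre replicate 1 and at 32.8 to 107 normalized counts in the other 5 mice. Mpped1-201, Mpped1-209 and Rgs14-202 each have 0 nt that are in no other isoform of their gene. As for Wfs1-202, how much of their counts rests on RSEM's division of shared reads is not known. Mpped1-208, Mpped1-209 and Mpped1-210 each stayed below 0.26% in every mouse. In an exact permutation test of the shares over mice, two-sided, the lowest p of the 17 isoforms was 0.3, where 3 against 3 mice cannot go below 0.1, and all 17 shares overlapped between the genotypes.

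**Figure D4:**
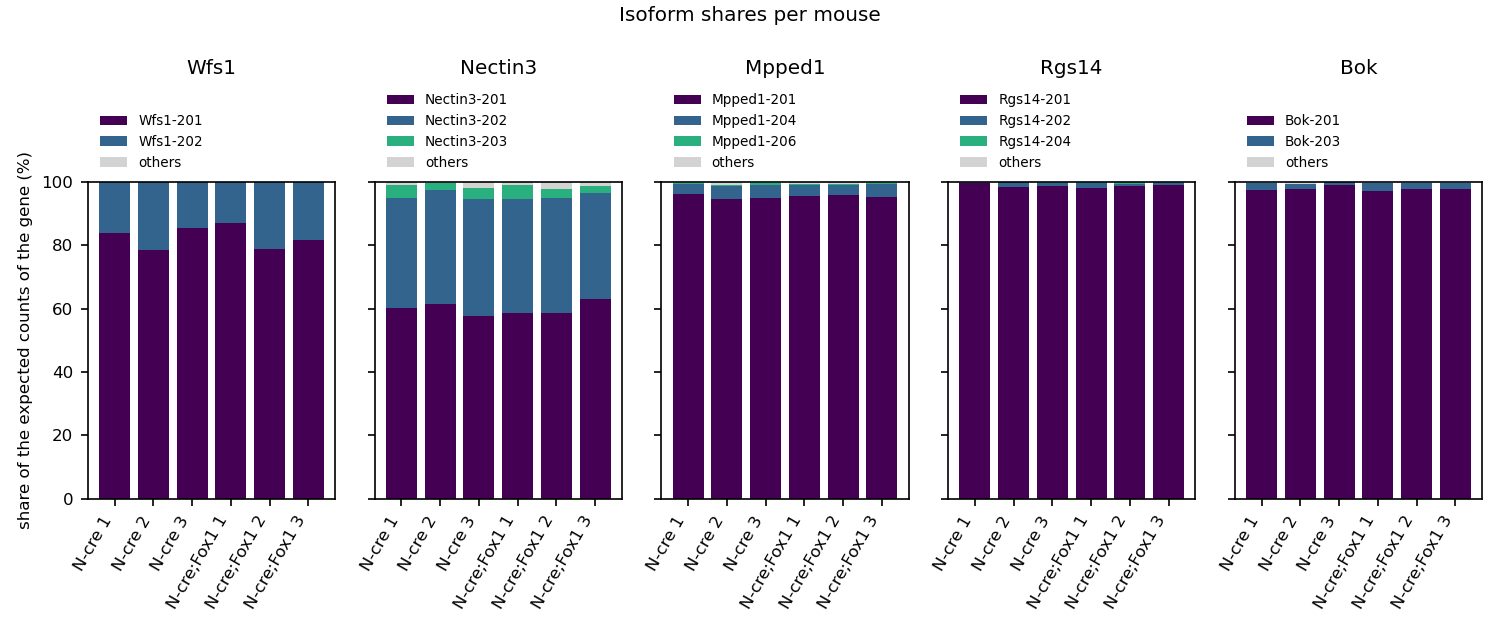
Share of each isoform in the expected counts of its gene (y axis, percent) in each mouse (x axis) for the 5 genes with more than 1 tested isoform, showing up to 3 tested isoforms and the rest in grey. Wfs1-201 stays between 78.5% and 86.9% and Nectin3-201 between 57.6% and 63.1%, with no split by genotype.

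Finally, levels were set side by side per length, as TPM, in which counts are divided by the annotated isoform length and scaled to the same total in every mouse. Pcp4 had the highest level, with a mean of 194 TPM over the 6 mice and a range of 175 to 225, and Mpped1 followed with 181 (170 to 188.5 TPM). Rgs14 (107, from 97.5 to 118 TPM), Wfs1 (106.5, from 78.9 to 137 TPM) and Fibcd1 (97.9, from 84.2 to 106 TPM) came next, then Bok with 71.0 TPM (67.1 to 74.2). The lowest were Amigo2 (23.3, from 19.96 to 26.8 TPM), Pou3f1 (23.0, from 19.4 to 24.6 TPM) and Nectin3 (20.2, from 18.7 to 21.8 TPM). In this order the ranges of Pcp4 and Mpped1 overlapped, as did those of Rgs14, Wfs1 and Fibcd1, and those of Amigo2, Pou3f1 and Nectin3. Within these groups Rgs14 was above Fibcd1 in every mouse, while the order of each other pair changed between mice. Bok did not overlap with either neighbor. The subfields were mixed in this order, with the CA2 genes Pcp4 and Amigo2 at 194 and 23.3 TPM, and the levels were above those of 75.8% (Nectin3) to 97.4% (Pcp4) of genes with any counts.

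**Figure D5:**
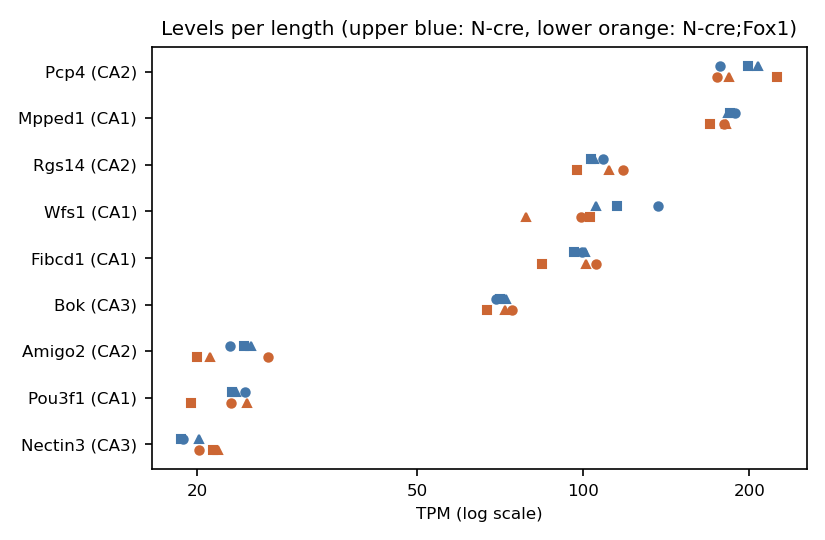
TPM (x axis, log scale) of the 9 genes in each N-cre (blue, upper) and N-cre;Fox1 mouse (orange, lower), ordered by the mean over the 6 mice, with the same symbol for each replicate number as in the plot of normalized counts. The genes fall at 170 to 225, at 67.1 to 137 and at 18.7 to 26.8 TPM.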

How the data were processed

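Whole hippocampus of 3 control (N-cre) and 3 transgenic (N-cre;Fox1) mice was sequenced, with 1 stranded total RNA library each. The authors trimmed reads with cutadapt 1.18, aligned them to mm10 with STAR 2.5.2b and quantified isoforms with RSEM 1.3.0 on GENCODE M16. They deposited expected counts per isoform, not normalized and not filtered, and whether RSEM was run with a strand setting is not given in the sources used here. An expected count need not be whole, because reads that fit several isoforms are divided between them.

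For this work the expected counts were rounded, tested per isoform and summed by gene symbol, and filtered with filterByExpr (minimum count 10, minimum total 15). Tests of genotype used edgeR 4.0.16 in R 4.3.3 (TMM, robust quasi-likelihood, genotype only), with Benjamini-Hochberg adjustment over all features and a threshold of 0.05. EBSeq, used by the authors, was not used here. Isoform usage was tested with diffSpliceDGE, and shares by exact permutation in SciPy 1.17.1. Positions, lengths and sequences came from GENCODE M21, in which 130826 isoforms have the same identifier and version. Log2 CPM used a prior count of 2. Fits were tested on simulated data.

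The 9 genes, the other marker lists and the tests were chosen with earlier results of these data known. By rule the text names the 9 genes, their isoforms that passed the filter, the 2 nearest patterns of the 3 genes with the widest range, and, of the other lists, called genes and up to 3 of the most abundant. Other genes and isoforms named, and also Slc17a6 and Rgs9, were chosen after their values were seen. Alternatives were DESeq2 1.42.0, limma-voom (limma 3.58.1), other scalings and filters, counts not rounded, a replicate block, a term for mice with high Xist, and each mouse left out. The study calls the mice biological replicates. Depth was 40463587 to 62141336 expected counts per mouse. The precision of a gene's mean is set by the spread between 3 mice, which includes counting error.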

Additional observations from a re-analysis of the deposited data

How the results depend on the processing

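In all 16 alternatives 0 of the 9 genes and 0 of their isoforms passed the adjusted threshold, and the lowest adjusted p of a gene was 0.204, for Amigo2 without N-cre;Fox1 replicate 1. Wfs1, Mpped1 and Nectin3 kept the sign of their log2 fold change in 16 of 16, within -0.49 to -0.23, -0.09 to -0.03 and 0.08 to 0.13. Isoform usage was recomputed in 11 of the alternatives, not with the other scalings, DESeq2, limma-voom or the Xist term. In 10 of them 0 isoforms of the 9 genes were called, where 45 to 271 isoforms were called over all. Without a filter on low counts 1 of their 30 tested isoforms was called, where 199 of 75323 isoforms were called over all. That isoform was Mpped1-203 (log2 difference in usage -6.99, diffSpliceDGE adjusted p 0.0436). It had 42.4 expected counts in N-cre replicate 2 and 0 in the other 5 mice. Signs turned for genes near 0. Pcp4 was 2e-04 without the filter. Without both mice rich in choroid plexus markers, an alternative chosen after seeing the data, Fibcd1 was 0.08, Pou3f1 0.0074, Amigo2 0.0256 and Bok 0.0634. Leaving out 1 mouse at a time gave -0.0981 to 0.0671 for Fibcd1, -0.1617 to 0.012 for Pou3f1, -0.1124 to 0.0658 for Pcp4, -0.0251 to 0.1219 for Rgs14 and -0.0335 to 0.0389 for Bok. The cause was not tested. With the replicate number as a block, 0 of the 9 genes and 0 of their isoforms were called. Over all, 5 genes were called, as without the block. By edgeR the lowest adjusted p of the 9 was 0.282, for Wfs1 with -0.35. The unadjusted p of Wfs1 in edgeR was 0.00055 with the block and 0.070 without it. Same-numbered mice deviated together for replicate 1 (correlation 0.707 over 13737 genes) but not for replicates 2 (-0.24) and 3 (-0.387). N-cre replicate 3 with N-cre;Fox1 replicate 2 gave 0.755, and N-cre replicate 2 with N-cre;Fox1 replicate 3 gave 0.548. The replicate 1 mice shared high Xist, and the mice with 0.755 shared high choroid plexus markers. These correlations therefore cannot tell whether the numbers pair the mice. Over all genes, DESeq2 called 50 and the fit without a filter 45, against 5. Over all isoforms they called 215 and 10, against 0. With 3 mice per genotype, the Wfs1 difference, with an interval of -0.75 to 0.04, could not be told from none. Precision differed between genes, and the intervals of Mpped1 (-0.16 to 0.02) and Bok (-0.11 to 0.10) were narrower.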

Other observations

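Genes of other cells and regions were read in the same libraries, and 0 of them passed the adjusted threshold in edgeR. Before adjustment, p was below 0.05 for 3 of 5 astrocyte genes and 2 of 9 genes of dentate granule cells, all with a log2 fold change above 0, and for 2 of 8 striatal genes and 1 each of 6 thalamic, 6 neocortical or subicular and 5 interneuron genes, all below 0. It was below 0.05 for 0 of the oligodendrocyte, microglia, endothelium, choroid plexus and general excitatory neuron genes. Over all genes 6.19% were below 0.05, and 1 gene in a list of 5 or 6 is too few to compare with that share.

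The genes named next were, except Gfap, Gja1 and Slc1a3, chosen after their values were seen. Slc17a6 and Rgs9 were among the 3 most abundant genes of their lists, but the genes more abundant than they were are not named. Gfap, the intermediate filament of astrocytes, had normalized counts of 24304, 23597 and 22722.5 in N-cre and 34277, 28026 and 29773.5 in N-cre;Fox1 mice, a log2 fold change of 0.38 (edgeR adjusted p = 0.320). Gja1, a gap junction protein, had 0.10 (adjusted p = 0.756) and Aqp4, the water channel of astrocyte endfeet, 0.21 (adjusted p = 0.595). These 3 were higher in every N-cre;Fox1 mouse, as were 6.06% of all genes, while Slc1a3 and Aldh1l1 overlapped, with -0.02 and -0.14. Of the dentate granule genes Trpc6, a cation channel, was higher in every N-cre;Fox1 mouse, at 0.29 (adjusted p = 0.477), and C1ql2 overlapped, at 0.12 (adjusted p = 0.799). The 9 genes of that list ran from -0.24 to 0.29, with 6 above 0 and 3 below, and a median of 0.04. Lower in every N-cre;Fox1 mouse, as were 6.11% of all genes, were the adenosine receptor Adora2a of striatum, at -0.61 (adjusted p = 0.693), the glutamate transporter Slc17a6 of thalamus, at -0.21 (adjusted p = 0.769), the neuropeptide Vip of interneurons, at -0.21 (adjusted p = 0.799), and Rprm of neocortex, at -0.12 (adjusted p = 0.799). The other striatal gene with an unadjusted p below 0.05, Rgs9, overlapped, at -0.22 (adjusted p = 0.799). These lists also held genes above 0. They were 1 of 8 striatal genes (0.17), 2 of 6 thalamic (up to 0.17), 2 of 6 neocortical or subicular (up to 0.13) and 1 of 5 interneuron genes (0.13).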
